A study of Mus musculus with 8 samples.

Results

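The comparison described here sets the 2/4 clone of the mouse neuroblastoma line N18TG2 against the parental N18TG2 line, both treated with retinoic acid (RA). The arrays were chosen by sample title, 2 arrays of the clone with RA and 2 of the parental line with RA, 4 of the 8 arrays of the series. The other 4 arrays, 2 of each line without treatment, enter the shared estimate of the spread and a test of whether a line difference depends on RA. N18TG2 is an established line that makes little or no neurotransmitter, and the labels call the 2/4 clone a ChAT-expressing derivative of it, ChAT being choline acetyltransferase, the enzyme that joins choline to acetyl-CoA to form acetylcholine. The labels do not name the promoter or the sequence that gives the clone its ChAT. Both RA groups received 1 µM all-trans RA in medium with 1% serum, dissolved in DMSO, after growth in medium with 10% serum. The clone, a single clone, was also kept in G418 at 200 µg/mL and the parental line was not. Selection, cloning and line therefore cannot be told apart. The labels give neither the time in RA nor the medium of the untreated cells, and they do not state whether paired arrays stem from different cultures, so p-values may measure technical spread only.

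RA is a vitamin A derivative that binds nuclear receptors (RAR and RXR), which sit on response elements of target genes and switch them on when RA arrives. Neuroblastoma cells, tumour cells of the sympathetic nervous system lineage, commonly leave the cell cycle and extend processes under RA. Acetylcholine is made by ChAT, loaded into vesicles by the transporter Slc18a3, sensed by nicotinic and muscarinic receptors and cleaved by acetylcholinesterase. The series title joins ChAT to lamin A/C, the nuclear lamina protein of the gene Lmna, so the question is which genes separate a ChAT-expressing line from its parent once both receive RA.

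Levels below are log2 intensities relative to the 75th percentile of the same array, called scaled log2 intensity, and a difference is the clone mean minus the parental mean on that scale, given with its standard error over n = 2 arrays per group. A gene was called at a limma adjusted p under 0.05. Before the results, 1 array needs naming. On clone RA replicate 1, 71.8% of probes were well above background, against 47.8% to 62.8% on the other 7 arrays, and its median over all probes was -3.05 where the others lay between -4.72 and -4.45. Its spike-in detection limit of 2.11 was outside the range set in the scanner software. The clone RA pair also had the lowest replicate correlation across genes (r = 0.962, against 0.983 to 0.987 in the other 3 pairs). All arrays shared 1 slide and 1 scan. The parental RA arrays lay in row 1 and the clone RA arrays in row 2, so slide row and line cannot be told apart under RA. The untreated lines lay in the opposite rows.

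The labelled cell type was checked against markers. Of 12 genes that mark sympathoadrenal neuroblastoma, 11 were well above background on all 4 RA arrays, and the log2 of their summed level was 6.48 and 6.28 on the parental arrays and 7.34 and 7.63 on the clone arrays. The extraction protocol speaks of hippocampus, which the cell line label contradicts. Of 15 markers of hippocampal neurons, 3 were above background on all 4 RA arrays and 5 (Calb1, Gad1, Neurod2, Neurod6 and Prox1) on none. Their summed log2 level ran from 2.25 to 2.58 in the parental line and from 2.26 to 2.60 in the clone, so the groups overlapped. Of 14 Schwann and glial markers 3 (Foxd3, Olig1 and Olig2) were above background on none of the 4 arrays, of 11 fibroblast markers 4 (Fap, Lum, Postn and Thy1), and of 12 vessel, blood and microglial markers 3 (Cdh5, Cx3cr1 and Tek). On all 4 RA arrays 7 glial, 4 fibroblast and 6 vessel, blood and microglial markers were above background, so these lists were not silent. Summed log2 levels were 0.67 to 1.03 against 1.06 on both clone arrays for glia, 0.59 to 1.00 against 0.74 to 0.89 for fibroblasts, and 4.00 to 4.24 against 3.96 to 5.21 for the last list, whose higher clone value came from clone RA replicate 1.

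Under RA the lines differed at a large part of the genes measured. Of 26262 genes tested, 6081 were called (23.2%), 3395 higher in the clone (12.9%) and 2686 lower (10.2%), and 5941 of them differed at least 2-fold. With clone RA replicate 2 alone standing for the clone, all 6081 differences kept their sign, 3952 were called again, and 4477 genes were called in all (17.0%). Clone RA replicate 2 is part of the clone mean that gave the calls, so the calling itself favours kept signs. The groups did not overlap at 30.9% of genes with the clone higher and at 27.8% with the clone lower. The median over all genes was 0.11, and it was -0.14 under quantile normalization and 0.24 with the percentile taken over probes above background on all arrays, and list medians below are given beside 0.11. The split between higher and lower calls was 3198 and 3251 under quantile normalization, and 5062 and 2223 without clone RA replicate 2. The number of genes called ranged from 3817 without parental RA replicate 2 to 7285 without clone RA replicate 2, and was 2628 with only the 4 RA arrays fitted, 3646 after normexp correction of the background and 3703 when dim probes were not filtered.

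**Figure D1:**
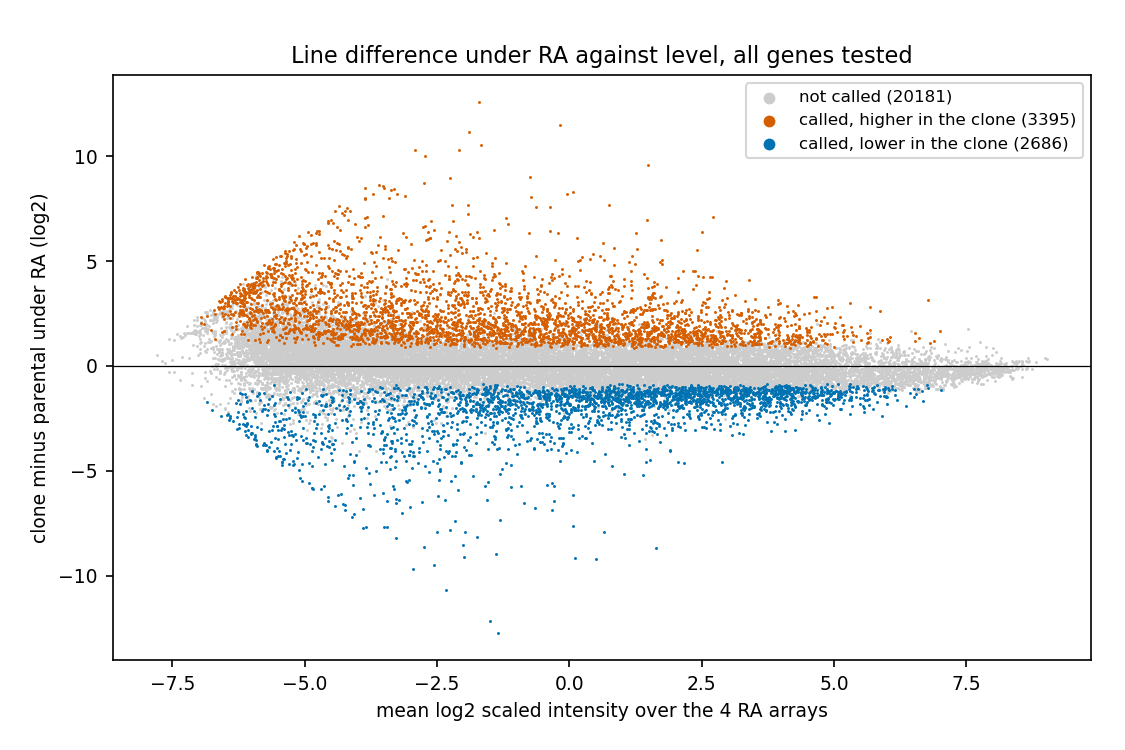
The difference between clone and parental line under RA (log2, vertical axis) is plotted against the mean scaled log2 intensity over the 4 RA arrays (horizontal axis), 1 point per gene. The 3395 orange points are genes called higher in the clone, the 2686 blue points genes called lower and the grey points the genes not called; called genes lie at all levels, and no called difference is smaller than 0.85.

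The genes furthest apart were dim in 1 line and bright in the other. Pcp4, a small calmodulin-binding peptide of neurons, had scaled log2 intensities of -3.28 and -3.33 on the parental arrays and 6.21 and 6.33 on the clone arrays, a difference of 9.57 ± 0.28 or 761-fold (limma adjusted p = 3.95e-05). Scn11a, a sodium channel of sensory neurons, read -4.94 and -5.54 in the parental line and 3.70 and 3.80 in the clone (8.99 ± 0.30, 508-fold). Both arrays of each line lay close together, far from those of the other line, which the choice by size of difference favours. Prkar1b, a regulatory subunit of protein kinase A, stood at -3.91 and -4.24 against 3.99 and 4.45 (315-fold). Nrg1, the neuregulin that signals through ErbB receptors, stood at -4.45 and -5.04 against 3.40 and 3.20 (265-fold). Cdk18, a kinase of the PCTAIRE family, was 290.1-fold higher and Lhx5, a LIM homeobox factor of the developing brain, 187-fold. Slxl1 and Pnma5, a testis gene of the X chromosome and a paraneoplastic antigen family gene, were 205-fold and 189-fold higher.

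In the other direction, Gadd45g, a growth arrest and stress sensor, was at 5.44 and 4.75 on the parental arrays and -3.99 and -4.17 on the clone arrays (-9.18 ± 0.35, 580.1-fold lower, adjusted p = 4.49e-05). Dlk1, an imprinted ligand-like protein of the cell membrane, was at 4.40 and 4.96 against -3.51 and -5.40 (-9.13 ± 0.59, 560.3-fold lower). Prom1, which encodes the membrane protein CD133, was at 3.31 and 2.88 against -5.83 and -5.90 (498-fold lower). Insm1, a transcription factor of neuroendocrine cells, was at 3.98 and 3.79 against -3.28 and -4.23 (-7.64 ± 0.37, 200.0-fold lower). For each of these 4 genes the parental arrays were the high ones and no value was shared between the lines, which follows from their choice by size of difference. Magea1 (a cancer-testis antigen), Spint1 (an inhibitor of membrane serine proteases), Dmrtc1c2 and Fkbp10 (a collagen chaperone) were 163-, 117-, 110.2- and 92.3-fold lower.

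**Figure D2:**
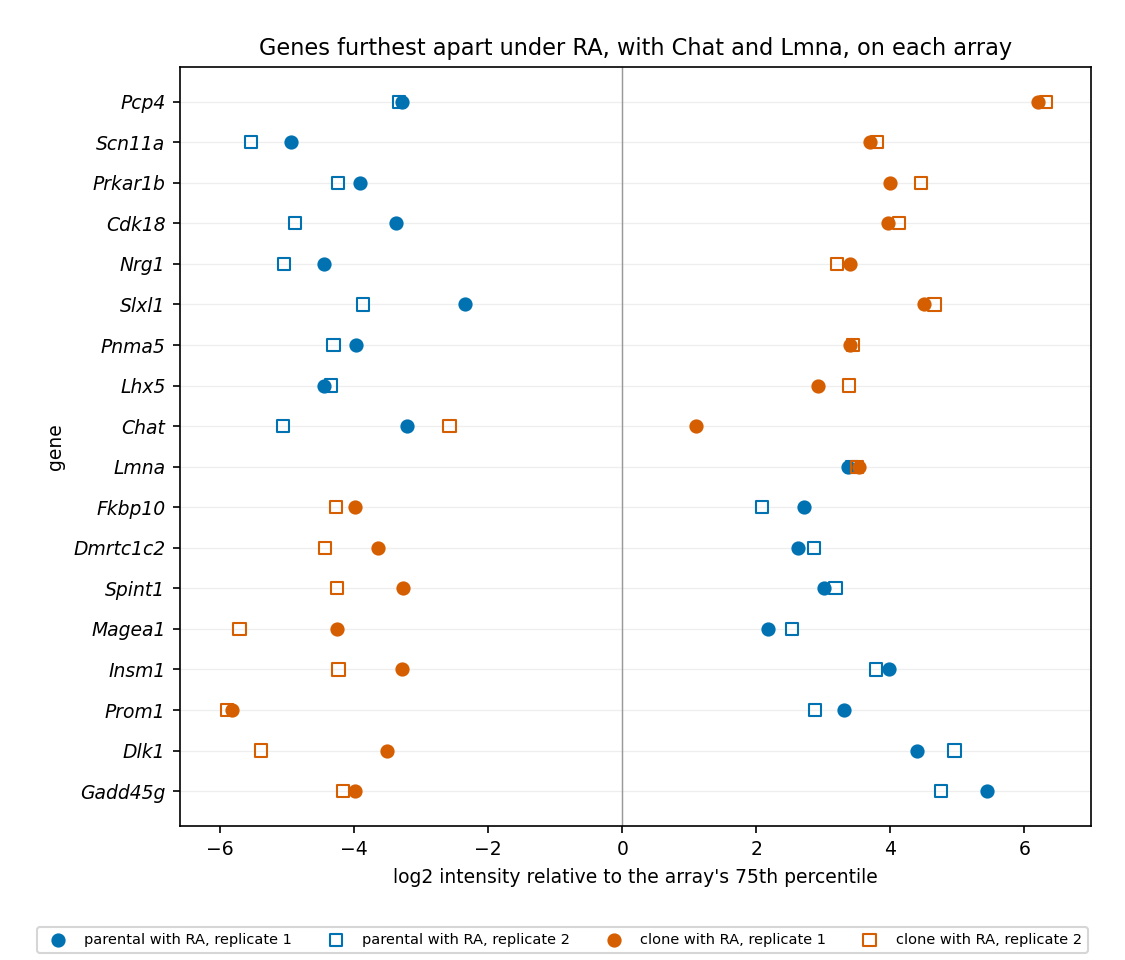
Scaled log2 intensity (horizontal axis, 0 at the 75th percentile of the array) on each of the 4 RA arrays for the 8 genes furthest higher and the 8 furthest lower in the clone among genes above background on all 4, with Chat and Lmna between them. Blue symbols are parental arrays and orange symbols clone arrays, filled for replicate 1 and open for replicate 2; the lines separate fully for the 16 genes, the 4 Lmna symbols coincide near 3.5, and the Chat value of clone RA replicate 1 stands apart at 1.10.

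Some genes were above background in 1 line only, and then only a lower limit of the fold can be given. On each array of the dim line it was taken from the dimmest level well above background or the probe's own signal, whichever was higher. These limits, here and below, hold for the main processing only. Over the alternative settings the log2 difference smallest in size was 8.65 for Ctnna2, 7.04 for Npy, -8.57 for Steap1 and -3.32 for Jag1. Ctnna2, the neuronal alpha-catenin that ties cadherins to actin, was at least 2870.3-fold higher in the clone (5.62 and 5.52 on its arrays, adjusted p = 3.95e-05). Npy, the neuropeptide Y gene of sympathetic neurons, was at least 939-fold higher and Igsf21, an immunoglobulin family adhesion protein, at least 835-fold. Sin3b, a corepressor scaffold, was at least 2396-fold higher by its brightest probe, although the measured differences of its 2 probes were 12.60 and 4.24. Steap1, a membrane metalloreductase, was at least 3318-fold lower in the clone, from 5.40 and 4.63 on the parental arrays. Rpl39l, a ribosomal protein paralogue, was at least 2463-fold lower, Dcaf8l at least 829-fold and Mt1, a metallothionein that binds zinc and copper, at least 545-fold. In all, 557 genes called higher were above background on both clone arrays and neither parental RA array, and 208 called lower showed the reverse. Clone RA replicate 1 read 71.8% of probes well above background, against 54.3% and 62.8% on the parental RA arrays. The first count needs that array above background and the second needs it below, so the counts cannot be compared directly.

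Chat, the gene of the clone's label, was read by 1 probe that spread widely. It gave -3.22 and -5.06 on the parental arrays and 1.10 and -2.58 on the clone arrays, a difference of 3.40 ± 1.27 that did not pass the test (adjusted p = 0.0996). With clone RA replicate 2 alone the difference was 1.56 (adjusted p = 0.316), and without that array it was 5.24 (adjusted p = 0.00713); when the fit was limited to probes above background on every array the adjusted p was 0.0449. Whether this probe reads the ChAT sequence of the clone was not tested, so the label rests on the submitters' description. Lmna read 3.36 and 3.43 in the parental line and 3.53 and 3.5 in the clone, with both clone arrays just above both parental arrays (0.12 ± 0.26, adjusted p = 0.766, 95% interval -0.49 to 0.74).

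Other genes of acetylcholine handling passed the test, in both directions. Ache, the enzyme that cleaves acetylcholine, read -3.49 and -2.67 on the parental arrays and 0.17 and 0.43 on the clone arrays, 10.4-fold higher in the clone (3.38 ± 0.35, adjusted p = 0.00101). Prima1, the membrane anchor that holds acetylcholinesterase at the neuronal surface, read -1.11 and -1.78 against 2.16 and 1.96, 11.4-fold higher (3.51 ± 0.32, adjusted p = 0.000653). Enzyme and anchor were thus both higher on each clone array than on each parental array, as were 30.9% of all genes. Slc18a3, the vesicular acetylcholine transporter, whose gene lies within the first intron of Chat in mammals, was lower at -2.03 ± 0.28 (adjusted p = 0.00287), from -0.73 and -0.96 to -2.81 and -2.94. Chka, the choline kinase that draws choline into phosphatidylcholine, was 6.55-fold lower (-2.71 ± 0.28), and Chpt1, a later enzyme of that route, was at -1.17 ± 0.28 by its brighter probe and 1.34 by the other and was not called with clone RA replicate 2 alone (adjusted p = 0.109). Of 11 genes listed, 9 were tested, with 2 higher and 3 lower, beside 12.9% higher and 10.2% lower over all genes. Higher members numbered 4 without clone RA replicate 2. Of 12 acetylcholine receptor subunits and receptors tested, 3 were higher, all of them neuronal nicotinic subunits, and 0 lower (0 at an unadjusted p under 0.05), 25.0% called beside 23.2% over all genes. Chrna3, the alpha subunit of ganglionic receptors, read -2.50 and -2.27 against -0.68 and -0.21 (1.94 ± 0.31), Chrnb2 was at 1.61 ± 0.29 and Chrna5 at 1.77 ± 0.43. The Chrna5 call ended without either parental RA array (adjusted p = 0.120 and 0.0659), without either parental untreated array (0.0501) and without clone RA replicate 2 (0.0703). Higher members numbered 5 without clone RA replicate 2. The median of the receptor list, 0.72, was -0.06 under quantile normalization.

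Genes of the lamina and its partners were called at a share near that over all genes, in both directions. Of 21 genes of the lamina, the inner nuclear membrane and the LINC complex, which links the nucleus to the cytoskeleton, 2 were higher and 4 lower (28.6% called beside 23.2% over all genes, median -0.29). Lemd3, an inner membrane protein that binds lamins and SMADs, read 3.59 and 2.75 on the parental arrays and 0.32 and 1.14 on the clone arrays (-2.44 ± 0.50). Syne1 and Syne3, nesprins of the outer nuclear membrane, were higher at 2.09 ± 0.50 and 2.64 ± 0.28, Syne3 with 1 of the 2 parental arrays above background. The Syne3 call was lost after normexp correction (0.93, limma adjusted p = 0.219) and under quantile normalization (1.63, 0.0685). Tmpo, Tor1aip1 and Tmem43 were lower at -1.21, -1.16 and -1.0 and were not called with clone RA replicate 2 alone. Higher members numbered 1 without clone RA replicate 1, parental RA replicate 1 or either clone untreated array, and lower members numbered 1 without clone RA replicate 1, either clone untreated array or either parental RA array and 2 without clone RA replicate 2. Without parental RA replicate 1 Lemd3 was no longer called (adjusted p = 0.0775), and Syne1 lost its call without parental RA replicate 1 (0.0702), clone RA replicate 1 (0.0637) or either clone untreated array (0.0510). Lmnb1 and Lmnb2, the B-type lamins, were at -0.84 and 0.29 and did not pass the test.

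Genes that carry and read RA differed in both directions between lines that had received the same dose. Of those tested, 47.8% were called beside 23.2% over all genes. Among 23 tested genes, 8 were higher in the clone and 3 lower (median 0.65; 6 and 2 with clone RA replicate 2 alone). Higher members numbered 4 without parental RA replicate 2 and 5 without parental RA replicate 1. Of the receptors, Rarg was 9.56-fold higher, from -0.56 and -0.37 on the parental arrays to 2.68 and 2.91 on the clone arrays (3.26 ± 0.30, adjusted p = 0.000680). Rxra, the shared partner receptor, was higher at 2.08 ± 0.39 with 1 of the 2 parental arrays above background. Rarb, itself a classical RA target, was lower at -3.28 ± 0.45, from -4.02 and -3.29 to -7.15 and -6.73, with 1 of the 2 clone arrays above background, by its brighter probe, while its other probe read 0.49, so its direction is not settled. Rara, the alpha receptor, was at 0.55 ± 0.35 and did not pass the test. Cyp26a1, the main RA-degrading hydroxylase and another classical target, was above background in the clone only (-2.03 and -1.88) and at least 20.0-fold higher (adjusted p = 0.000520). With probes averaged, 8 members were higher and 2 lower. Rdh10, the retinol dehydrogenase that starts RA synthesis, was 11.0-fold lower (-1.01 and -0.84 against -4.43 and -4.33). Stra6, the membrane receptor that imports retinol, was higher at 3.78 ± 0.47 with 1 of the 2 parental arrays above background, Stra8, an RA-induced gene of germ cells, was at least 5.53-fold higher, and Cyp26b1, a second RA hydroxylase, was at 0.42 ± 0.60 without passing the test.

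The promoter windows of both targets hold the letters of a direct repeat of the kind RA receptors bind. The promoter windows of RefSeq (build GRCm38.p6, 250 bases before to 50 after each start, 32851 windows) were searched on both strands for GTTCA and AGTTCA separated by any 5 bases, which occurs in 11 windows (0.0335%). The stretches from 35 bases before the match to the start site are shown with the matching bases in capitals, since both genes are classical RA targets of this list.
Cyp26a1, chr19:37697741-37697807, strand +: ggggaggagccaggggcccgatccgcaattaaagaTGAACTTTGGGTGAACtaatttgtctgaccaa
Rarb, chr14:16575478-16575563, strand -: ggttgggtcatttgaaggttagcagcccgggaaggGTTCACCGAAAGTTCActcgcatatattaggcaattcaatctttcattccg
The match began 32 bases before the start in Cyp26a1 and 52 before it in Rarb. Of 15 retinoid genes with a window, these were the 2 that held the letters. The letters searched are those that the Rarb and Cyp26a1 elements share, so the match in these 2 genes follows from the choice of letters. None of the 15 held the consensus form, AGGTCA repeated after any 5 bases, which occurs in 3 of all windows. Whether retinoid genes hold such repeats more often than other genes was not tested. A match describes the letters of the window and says nothing of binding in these cells.

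Hox genes, which RA induces in a body-axis order in embryos, were measured above the filter for 17 of 39 members, of which 3 were higher and 0 lower (0 at an unadjusted p under 0.05), a share of 17.6% higher beside 12.9% over all genes. Hoxb6 read -3.80 and -2.81 against 0.32 and 0.35 (12.5-fold higher, adjusted p = 0.000901) and Hoxc4 -0.60 and -0.88 against 0.90 and 0.93 (3.16-fold). Hoxc12 was above background in the clone only, at least 5.06-fold higher, and its call was lost with clone RA replicate 2 alone (adjusted p = 0.0747) and without any other single array except clone RA replicate 2. Higher members numbered 7 without clone RA replicate 2.

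Genes of the neuronal cytoskeleton and growth cone stood higher in the clone as a group. Of 29 tested, 23 were higher and 0 lower (0 at an unadjusted p under 0.05), 79.3% called beside 23.2% over all genes. Their median was 1.56 against 0.11 over all genes. Stmn2, a regulator of microtubule ends in growth cones, read -0.40 and -1.30 on the parental arrays and 6.24 and 6.28 on the clone arrays, 138-fold higher (7.11 ± 0.35, adjusted p = 7.91e-05). Sncg, gamma-synuclein of peripheral neurons, read -1.66 and -0.87 against 4.57 and 4.89 (64.1-fold), and Dclk1, a doublecortin family kinase on microtubules, -1.44 and -1.24 against 2.67 and 3.18 (19.2-fold). Doublecortin itself, Dcx, was above background in the clone only and at least 14.6-fold higher. Growth cone proteins Gap43 and Dpysl3 were at 2.51 ± 0.31 and 2.61 ± 0.28, the neuronal tubulins Tubb3 and Tubb2b at 2.61 ± 0.42 and 2.57 ± 0.33, and the microtubule-associated protein Map2 at 2.88 ± 0.40. The intermediate filament genes Prph, Ina and Nefh were at 1.56, 1.27 and 0.93. The 6 members not called ran from -0.61 to 1.25 and included Stmn1 at -0.26. With clone RA replicate 2 alone the median was 1.57, and 8 of the 23 calls, Ina, Nefh and Mapt among them, ended. Probes of Mapt, the tau gene, ran from -0.13 to 1.68. Higher members numbered 14 without parental RA replicate 2 and 15 without clone RA replicate 1. Only the 4 RA arrays fitted left 10 calls.

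Synaptic vesicle and dense core granule genes followed the same direction. Of 34 tested, 19 were higher and 1 lower (median 1.33), 58.8% called beside 23.2% over all genes. Rab3a, the vesicle GTPase of regulated release, read 0.97 and 1.16 on the parental arrays against 4.78 and 4.77 on the clone arrays (13.1-fold, adjusted p = 0.000311). Syn1, synapsin I, read -0.62 and -0.11 against 3.31 and 3.37 (13.0-fold), and Syn2 and Syn3 were also higher at 2.81 and 2.09, Syn3 with 1 of the 2 parental arrays above background. The granins Chga, Chgb and Scg2, cargo of dense core granules, were at 3.18 ± 0.29, 3.15 ± 0.47 and 3.00 ± 0.30. Sv2a, a vesicle glycoprotein, was at 4.32 ± 0.43. The member called lower was Vamp1, a vesicle SNARE, at -2.12 ± 0.27, whereas Vamp2 was at 0.46 and did not pass the test, nor did the core release genes Snap25 (1.01), Stx1a (0.89) and Syt1 (1.15). Lower members numbered 2 without clone RA replicate 1. Normexp background correction left 11 members higher.

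Excitability genes moved the same way where they were called. Of 25 voltage-gated channel genes tested, out of 38 listed, 10 were higher and 0 lower (0 at an unadjusted p under 0.05). The share called was 40% beside 23.2% over all genes. Scn3a, a sodium channel of developing neurons, read -4.69 and -4.75 against 2.55 and 2.09, 132-fold higher (adjusted p = 9.72e-05). Scn2a, another sodium channel, read -2.30 and -2.58 against 0.66 and 0.28 (7.49-fold), and Cacna1h, a T-type calcium channel, 0.18 and -0.50 against 3.22 and 3.41 (11.1-fold). Lower members numbered 1 without clone RA replicate 1. Among transmitter receptors, 7 of 25 were higher and 1 lower, 6 and 2 with clone RA replicate 2 alone. Htr3a, a serotonin-gated channel subunit, read -0.20 and -0.14 against 2.81 and 3.42 (9.74-fold), its partner Htr3b was at least 11.3-fold higher, and Gria2, the glutamate receptor subunit that limits calcium entry, was at 2.72 ± 0.34. Adra2a, an inhibitory adrenergic receptor, was lower at -2.50 ± 0.39. After normexp correction neither Gria2 (1.33, limma adjusted p = 0.0654) nor Adra2a (-1.31, 0.0829) was called. The list then held 3 higher and 0 lower members. Lower members numbered 2 without clone RA replicate 1. The list's median of 0.81 was -0.03 under quantile normalization, and its share called was 32% beside 23.2% over all genes.

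Neuron-specific RNA-binding proteins, which direct splicing and mRNA stability in neurons, were higher for 10 of 22 and 0 lower (2 at an unadjusted p under 0.05). That is 45.5% called beside 23.2% over all genes. Celf3 read 1.03 and -0.03 against 3.95 and 4.37 (12.6-fold) and Elavl4, the neuronal Hu protein HuD, 2.20 and 2.22 against 4.41 and 4.77 (5.22-fold, adjusted p = 0.00201). Khdrbs2 was at least 2.91-fold higher, but its difference was 0.46 with normexp and 0.57 under quantile normalization, not called in either. Rest, the repressor of neuronal genes, was at -0.78 ± 0.31 (0.04 by its other probe) and Ptbp1, the splicing repressor that neurons lose, at -0.92 ± 0.33, neither past the test. Higher members numbered 4 without parental RA replicate 2, 5 without clone RA replicate 2 and 6 without clone RA replicate 1 or either clone untreated array.

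Axon guidance genes were higher for 11 of 32 and lower for 3, 43.8% called beside 23.2% over all genes. Among ligands, Slit1 read -4.79 and -4.54 on the parental arrays and 0.88 and 0.66 on the clone arrays, 43.2-fold higher (adjusted p = 7.91e-05), and Slit2 was at 3.27 ± 0.42, while Slit3 was lower at -1.38 ± 0.35 and not called with clone RA replicate 2 alone. Among receptors, Plxna4, a semaphorin co-receptor, read 0.21 and -0.30 against 4.06 and 4.26 (18.4-fold), its partner Nrp1 was at 1.98 ± 0.35, and Unc5a, a netrin receptor, read 1.19 and 1.40 against 4.44 and 4.48 (8.96-fold). Efnb3 and Ephb4, an ephrin and an ephrin receptor, were lower at -2.47 ± 0.36 and -2.37 ± 0.56. Lower members numbered 1 without parental RA replicate 2 or either clone untreated array.

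**Figure D3:**
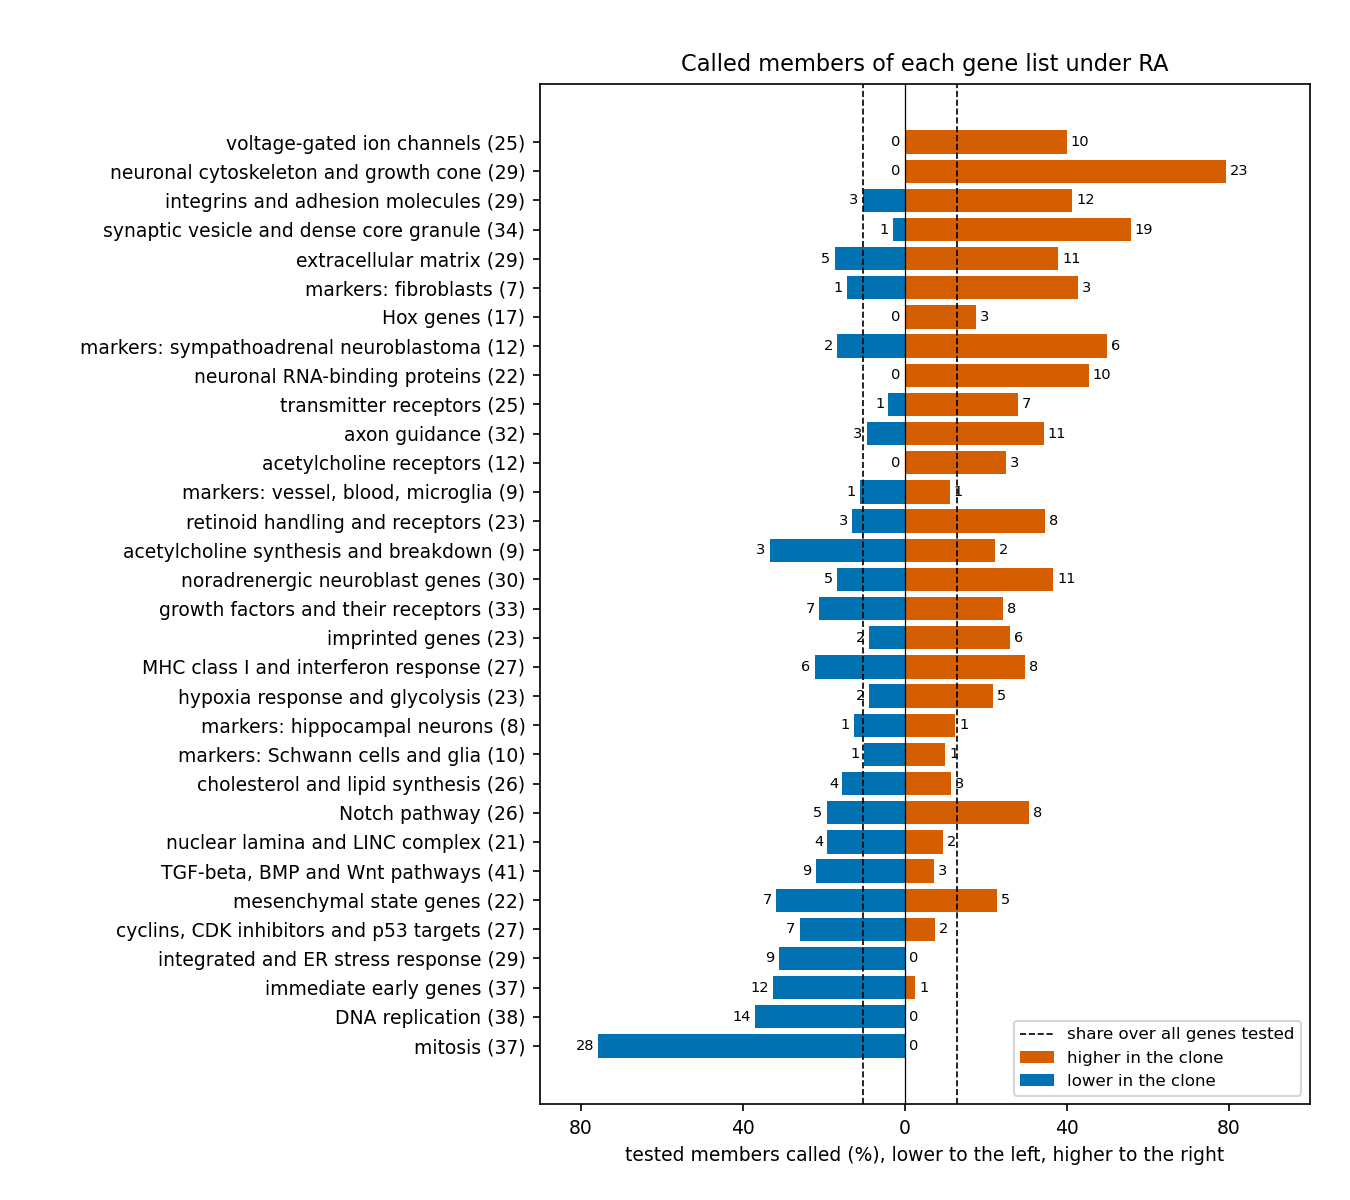
Share of the tested members of each gene list called higher (orange, to the right) or lower (blue, to the left) in the clone under RA, with the counts at the bar ends, the number tested in brackets and the lists ordered by their median difference. Dashed lines mark the shares over all genes tested, 12.9% higher and 10.2% lower; the neuronal cytoskeleton bar (23 of 29) and the mitosis bar (28 of 37) reach furthest.

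Genes of the noradrenergic neuroblast identity were divided. Of 30 tested, 11 were higher and 5 lower (median 0.54), 53.3% called beside 23.2% over all genes. Dbh, the enzyme that makes noradrenaline from dopamine, read 0.98 and 0.28 on the parental arrays and -3.28 and -3.29 on the clone arrays, 15.1-fold lower (adjusted p = 0.00122). Gata3, a sympathetic lineage factor, read 0.11 and -0.15 against -1.98 and -3.47 (-2.71 ± 0.48), which was no longer called without parental RA replicate 1 (adjusted p = 0.0520). The lineage factors Phox2a, Gata2 and Isl1 were higher at 1.11, 1.44 and 1.63, Gata2 without a call on clone RA replicate 2 alone. Slc18a1, the vesicular amine transporter of chromaffin cells, was higher at 4.41 ± 0.38, and Th, the first enzyme of catecholamine synthesis, was at 0.77 ± 0.27 and did not pass the test. Npy, Insm1 and Dlk1, described above, belong to this list as well. Higher members numbered 7 without either parental RA array. Mesenchymal state genes, the opposite pole of neuroblastoma identity, were also divided, 5 of 22 higher and 7 lower, 54.5% called beside the same 23.2%. Ccn1, a matricellular target of YAP, was above background in the parental line only and at least 28.7-fold lower in the clone. Nes, nestin of progenitor cells, read 1.58 and 1.85 against -0.49 and -0.82 (5.17-fold lower), the epithelial-mesenchymal transition factor Snai1 was at least 5.23-fold lower, and Notch3 was 5.86-fold higher. Lower members numbered 4 without either parental RA array.

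Cell surface and matrix genes held some of the widest gaps. Extracellular matrix genes were higher for 11 of 29 and lower for 5, 55.2% called beside 23.2% over all genes. The basement membrane collagen Col4a2 was at least 204-fold higher and its partner chain Col4a1 was at 4.21 ± 0.42, and Col22a1 was at least 177-fold higher. Tgfbi, a secreted adhesion protein of the matrix, read -5.03 and -4.05 against 2.27 and 2.17 (108-fold). Col18a1, another basement membrane collagen, was lower at -4.62 ± 0.37. The fibroblast collagens Col1a1 and Col1a2 were higher at 2.47 ± 0.32 and 4.61 ± 0.54 with 1 of the 2 parental arrays above background, while Pdgfrb, a receptor of fibroblasts and pericytes, was at -1.73 ± 0.41, not called without parental RA replicate 2 (adjusted p = 0.102) or clone RA replicate 1 (0.0809). Lower members numbered 2 without parental RA replicate 1 and 3 without parental RA replicate 2. Integrins and adhesion molecules were higher for 12 of 29 and lower for 3, 51.7% called beside the same 23.2%. The integrin Itga9 was above background on the clone arrays only, its relative Itga8 read -4.30 and -4.11 against 0.48 and 0.66 (27.4-fold), and Cdh6, a type II cadherin, read -0.30 and -0.32 against -4.68 and -5.02 (23.2-fold lower). When every array had to be above background, 6 matrix and 7 adhesion genes were called higher. After normexp correction the Col1a1 difference was 0.98 and was not called (limma adjusted p = 0.214).

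Growth factor genes and their receptors differed both ways, 8 of 33 higher and 7 lower, 45.5% called beside 23.2% over all genes. Fgf1 read -2.17 and -2.25 against 3.07 and 3.14, 39.8-fold higher (adjusted p = 7.91e-05), and Igf2r, which clears IGF2 and carries lysosomal enzymes, -5.07 and -4.88 against -0.16 and 0.20 (31.8-fold). The neurotrophin genes split, with Ntf5 higher at 3.25 ± 0.35 and Bdnf lower at -3.57 ± 0.30. Higher members numbered 5 without clone RA replicate 1 or parental RA replicate 2. In the Notch pathway 8 of 26 were higher and 5 lower, 50% called beside the same 23.2%. The ligand Jag1 was at least 67.9-fold lower, the ligand Dll1 was higher at 3.79 ± 0.61, and the modifiers Dtx1 and Mfng read -2.53 and -2.65 against 1.57 and 1.53 and -2.27 and -2.49 against 1.89 and 1.57, 17.7-fold and 17.2-fold higher. Nrarp, a feedback target of Notch, was at least 11.2-fold lower and Hey1, another target, was at 1.62 ± 0.31. Among TGF-beta, BMP and Wnt genes 3 of 41 were higher and 9 lower, 29.3% called beside 23.2% over all genes. The Wnt receptors Fzd1 and Fzd9 were at least 58.1-fold and 48.6-fold lower, Lef1, a nuclear effector of Wnt signals, was at -2.68 ± 0.39, and Tgfbr3, the TGF-beta co-receptor, was 9.53-fold higher. Higher members numbered 1 without parental RA replicate 1 and 5 without clone RA replicate 2, and lower members numbered 5 without parental RA replicate 2.

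Genes of mitosis were lower in the clone under RA nearly throughout. By the brightest probe of each gene, all 37 tested members had a negative difference. Of these, 28 were called lower and 0 higher (0 at an unadjusted p under 0.05), 75.7% called beside 23.2% over all genes. The median was -1.60 against 0.11 over all genes. Kif4, a chromosome-bound kinesin, read 2.99 and 3.1 on the parental arrays and -0.25 and -0.07 on the clone arrays, 9.20-fold lower (-3.20 ± 0.27, adjusted p = 0.000467). Tpx2, the spindle factor that activates Aurora A, read 3.23 and 3.82 against 0.56 and 0.71 (7.42-fold lower), and Top2a, the topoisomerase that untangles chromosomes, 5.12 and 5.09 against 2.55 and 2.84 (5.33-fold lower). For each of these 3 genes both clone arrays lay below both parental arrays with a gap wider than the spread within a line. They were named for the smallest adjusted p in the list, so this gap follows from the choice. The groups did not overlap with the clone lower at 27.8% of all genes. The mitotic kinases Aurka, Aurkb, Plk1 and Cdk1 were at -2.17 ± 0.30, -2.48 ± 0.32, -1.14 ± 0.26 and -1.35 ± 0.27, and the proliferation marker Mki67 at -1.77 ± 0.29. Members not called ran from -1.16 to -0.51 and included cyclin B1, Ccnb1, at -0.84 and the checkpoint gene Mad2l1 at -0.51. Dimmer probes of Cdk1 and Mad2l1 reached 0.21 and 0.80, and with the probes of each gene averaged 28 members were lower as well. With clone RA replicate 2 alone 19 were called (17.0% over all genes, both directions), at a median of -1.46, and with only the 4 RA arrays fitted 14. Without RA the median of the same genes was -0.20 and 1 was called (9.82% over all genes). The test of the difference between both line comparisons called 0 of them (0.206% over all genes) by limma. An unadjusted p under 0.05 was held by 27 of them, beside 3639 of all 26262 genes. Kif4 had a difference of -2.08 (limma adjusted p = 0.0875). A dependence on RA was therefore not shown for any single member.

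DNA replication genes went the same way for fewer members. Of 38 tested, 14 were lower and 0 higher (0 at an unadjusted p under 0.05), 36.8% called beside 23.2% over all genes. Their median was -1.0, and 12 were lower with clone RA replicate 2 alone. Rpa2, a subunit of the single-strand binding protein, read 3.36 and 3.34 against 1.10 and 1.06 (4.84-fold lower, adjusted p = 0.00159), Rfc4, a clamp loader subunit, 4.71 and 4.17 against 2.11 and 2.09 (5.07-fold), and Cdc6, which loads the MCM helicase, 1.07 and 0.80 against -1.18 and -1.02 (4.10-fold). Pcna, the sliding clamp, was at -1.59 ± 0.27 and the ribonucleotide reductase genes Rrm1 and Rrm2 at -1.65 ± 0.26 and -1.58 ± 0.25. Of the MCM genes, which form the helicase and its loading partner, Mcm3 was called at -1.73 ± 0.30 and Mcm10 at -1.55 ± 0.29, while Mcm2, Mcm4, Mcm5, Mcm6 and Mcm7 ran from -0.83 to 0.08 and did not pass the test. Without RA the median was -0.05 and 0 members were called by limma, with 7 at an unadjusted p under 0.05.

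**Figure D4:**
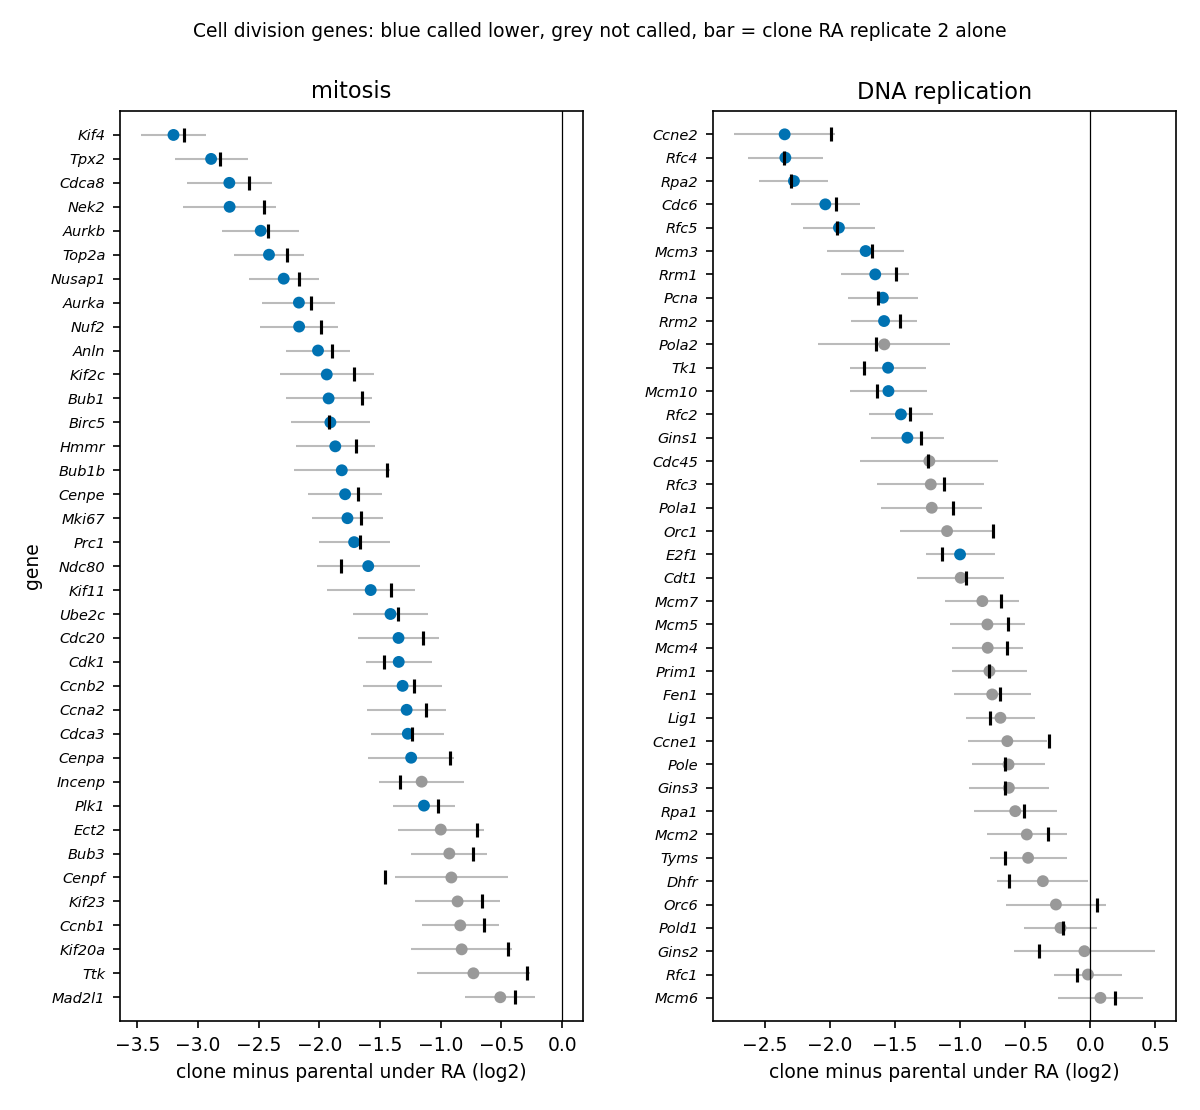
Difference between clone and parental line under RA (log2, horizontal axis) for each tested mitosis gene (left) and DNA replication gene (right), as points with the standard error. Blue points are called lower, grey points are not called, and black ticks give the difference with clone RA replicate 2 alone; all 37 mitosis points lie left of 0, and so do all their ticks.

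Promoters of these genes share short elements, shown here because the members moved together. CHR, the element bound by the MuvB repressor and activator complexes of the cell cycle, was searched as TTTGAA on both strands in the same 300-base windows. It was present in 24 of 32 mitosis genes with a window (75%), against 20.2% of all genes with a window and 17.9% of all windows, and in 19 of the 25 called lower and 5 of the 7 not called. CCAAT, the box bound by NF-Y, was present in 25 of 32 (78.1%) against 41.1% of all genes and 37.4% of all windows. The 4 genes with the smallest adjusted p among called members holding CHR are given, from 35 bases before the match, with the match in capitals. Each stretch ends at the start site, or at the end of the match where that lies past the start. The match began 23 bases before the start in Top2a. It began past the start, at base 20, 14 and 22 counted from it, in Kif4, Cdca8 and Anln.
Kif4, chrX:100626049-100626089, strand +: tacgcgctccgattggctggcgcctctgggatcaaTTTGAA
Top2a, chr11:99024190-99024247, strand -: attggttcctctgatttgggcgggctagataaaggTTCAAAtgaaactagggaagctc
Cdca8, chr4:124936899-124936939, strand -: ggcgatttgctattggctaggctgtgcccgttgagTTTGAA
Anln, chr9:22389180-22389220, strand -: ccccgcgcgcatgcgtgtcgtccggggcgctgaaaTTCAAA
For E2F sites, searched as TTTCCCGC or TTTGGCGC or TTTCGCGC, 12 of 31 replication genes with a window held a match (38.7%) against 2.12% of all genes and 1.84% of all windows, of which 2 of the 11 called lower and 10 of the 20 not called. The lower genes with a match were the following pair, the match again in capitals. The match began 138 bases before the start in Cdc6 and past the start, at base 20 counted from it, in Mcm3.
Cdc6, chr11:98907978-98908055, strand +: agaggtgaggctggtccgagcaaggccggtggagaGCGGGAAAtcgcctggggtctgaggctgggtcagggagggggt
Mcm3, chr1:20820286-20820328, strand -: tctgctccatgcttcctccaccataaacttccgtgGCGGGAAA
The called and the uncalled members of the mitosis list thus held CHR at shares of 76.0% and 71.4%.

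Cyclins, inhibitors of cyclin-dependent kinases and p53 targets were lower for 7 of 27 and higher for 2, with members that promote and members that restrain division among the lower ones. The share called was 33.3% beside 23.2% over all genes. Cdkn1a, the inhibitor p21, read 3.29 and 3.63 on the parental arrays and 0.21 and 0.17 on the clone arrays, 9.66-fold lower (adjusted p = 0.00114). Gadd45b, a stress sensor like Gadd45g, read 1.11 and 0.95 against -1.76 and -2.58 (9.16-fold lower), and Ccnd2, cyclin D2, was at -3.81 ± 0.48 with 1 of the 2 clone arrays above background. Cdk2 and the inhibitor Cdkn2d were at -1.80 and -1.28 and were not called with clone RA replicate 2 alone. Cdkn1b, the inhibitor p27, was at 0.15 ± 0.29 and did not pass the test. Lower members numbered 4 without clone RA replicate 1. Each of the 8 arrays, when left out, reduced the 2 higher members, Sesn1 and Phlda3, to 1.

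Stress and immediate early genes were lower for all called members except Spry1. In the integrated and endoplasmic reticulum stress list, 9 of 29 were lower and 0 higher (0 at an unadjusted p under 0.05). The share called was 31.0% beside 23.2% over all genes. Ddit3, the stress factor CHOP, read 5.44 and 5.28 against 2.30 and 2.18, 8.68-fold lower (adjusted p = 0.000851). Trib3, a pseudokinase induced by CHOP, read 7.66 and 6.52 against 4.59 and 4.86 (5.16-fold lower) and Cebpg, a partner of ATF4, 2.45 and 2.45 against 0.27 and 0.41 (4.32-fold lower), while Atf4 itself was at -0.71 ± 0.46 and did not pass the test. Lower members numbered 4 without clone RA replicate 1 and 5 without either parental RA array. Of 37 immediate early genes, which growth factors and depolarisation switch on quickly, 12 were lower and 1 higher. The share called was 35.1% beside 23.2% over all genes. Atf3 read 2.57 and 2.87 against -1.89 and -1.71 (22.9-fold lower, adjusted p = 0.000166) and Maff 2.30 and 1.94 against -0.74 and -0.36 (6.36-fold lower). Fos, Fosb and Nr4a1 were at -1.81 ± 0.34, -2.34 ± 0.52 and -1.95 ± 0.30, and Egr1 at -1.32 ± 0.56 without passing the test. Spry1, a feedback inhibitor of receptor kinase signals, was the member called higher, -1.26 and -1.28 against 1.72 and 1.51. Lower members numbered 4 without parental RA replicate 2 and 6 without parental RA replicate 1.

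Antigen presentation and interferon genes were divided. Of 27 tested, 8 were higher and 6 lower, and all 6 lower ones encode MHC class I chains or their relatives. Calls made up 51.9% of the list beside 23.2% over all genes. H2-K1 read 5.03 and 5.32 on the parental arrays and 0.38 and 0.81 on the clone arrays (23.9-fold lower, adjusted p = 0.000221), H2-D1 4.40 and 4.27 against -0.36 and -0.11 (23.7-fold), and H2-Q7 3.73 and 4.26 against -1.35 and -1.07 (36.9-fold). These genes are near-identical in places, so probes may share signal between them. B2m, the light chain common to them, was at -1.05 ± 0.31 and did not pass the test. The immunoproteasome subunits Psmb8 and Psmb9 were higher at 2.26 ± 0.30 and 1.66 ± 0.28, as were the interferon-induced genes Isg15 and Ifi35 at 1.48 and 1.98, and Rsad2 was at least 16.3-fold higher. Higher members numbered 5 without parental RA replicate 2.

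In the remaining lists, 6 of 23 imprinted genes were higher and 2 lower, 34.8% called beside 23.2% over all genes. H19, the maternally expressed non-coding RNA, was at -7.90 ± 0.52, and Slc22a18, a transporter of the same imprinted region of the genome, read -6.07 and -5.55 against 0.87 and 0.50 (90.2-fold higher, 1 of the 2 parental arrays above background). Meg3, the non-coding neighbour of Dlk1, was at -0.23 ± 0.38 by its brighter probe, which did not pass the test, and at 3.16 by its other probe. Of 26 lipid synthesis genes 3 were higher and 4 lower, 26.9% called beside 23.2% over all genes. Among the lower ones was Scd1, a fatty acid desaturase, at 1.52 and 1.78 against -4.36 and -7.98, with 1 of the 2 clone arrays above background. Apoe, the lipid carrier, read 2.77 and 2.56 against 0.86 and 0.49 (3.97-fold lower), and Mvk, mevalonate kinase, was at 1.41 ± 0.30, not called without parental RA replicate 2 (adjusted p = 0.0650). Higher members numbered 0 without parental RA replicate 2 and 1 without clone RA replicate 2, parental RA replicate 1 or either clone untreated array, and lower members numbered 2 without clone RA replicate 1, either parental RA array or either parental untreated array. Of 23 hypoxia and glycolysis genes 5 were higher and 2 lower, 30.4% called beside the same 23.2%. Pdk1, the kinase that diverts pyruvate from mitochondria, read -4.55 and -4.52 against -0.84 and -0.64 (13.9-fold), Ankrd37 was at 2.61 ± 0.34 and P4ha2, a collagen prolyl hydroxylase, at 2.56 ± 0.34. Higher members numbered 3 without parental RA replicate 2, either clone RA array, either clone untreated array or either parental untreated array, and lower members numbered 1 without parental RA replicate 1. Of the 12 neuroblastoma markers 6 were higher and 2 lower, 66.7% called beside 23.2% over all genes. Higher members numbered 2 without either parental RA array and 3 without either clone RA array, and lower members numbered 1 without parental RA replicate 1. Of 7 fibroblast markers tested 3 were higher and 1 lower, 57.1% called. Lower members numbered 0 without clone RA replicate 1 or parental RA replicate 2. The glial list held 1 higher and 1 lower member, 20% called and so near the 23.2% over all genes. Higher members numbered 0 without parental RA replicate 1, and lower members numbered 0 without parental RA replicate 1. The hippocampal list held 1 and 1 as well, 25% called and also near that share. Higher members numbered 0 without clone RA replicate 1, either clone untreated array, either parental RA array or either parental untreated array, and lower members numbered 0 without clone RA replicate 1, parental RA replicate 2, either clone untreated array or either parental untreated array. The vessel, blood and microglia list also held 1 higher and 1 lower member, 22.2% called beside 23.2% over all genes. Higher members numbered 5 without clone RA replicate 2, and lower members numbered 0 without clone RA replicate 2, either clone untreated array, either parental RA array or either parental untreated array.

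Most differences under RA had the same direction without RA. Of the 6081 genes called under RA, 5444 (89.5%) differed in the same direction between the untreated lines, which are separate arrays lying in the opposite slide rows. Untreated, 2578 genes were called (9.82%), and 1987 were called in both comparisons, 32.7% of the calls under RA and 77.1% of the untreated calls, 1958 of them with the same sign. The direct test of whether the line difference changes with RA called 54 genes (0.206%), 32 with a larger clone minus parental value under RA and 22 with a smaller one, while 3639 had an unadjusted p under 0.05. With the percentile taken over probes above background on all arrays that split was 50 and 12. The count ranged from 0 to 1016 when single arrays were left out, with 0 without either array of the parental RA, clone untreated or parental untreated groups, 43 without clone RA replicate 1 and 1016 without clone RA replicate 2. Slide row reverses between the lines along with treatment, so a row effect and a change with RA cannot be told apart. RA came in DMSO and in medium with 1% serum, and the medium of the untreated cells is not given. A change with serum or DMSO therefore cannot be told apart from a change with RA either.

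Among genes with a symbol, the smallest adjusted p in that test, 0.0160, was shared by 6. Ptgds, the prostaglandin D synthase, was higher in the clone under RA (-2.58 and -2.49 against 0.93 and 0.98, 3.49 ± 0.25) and lower without RA (-1.31, adjusted p = 0.0190), a change of 4.80. Dio2, the deiodinase that activates thyroid hormone, was higher by 7.66 under RA and 2.66 without it, with 1 of the 2 parental arrays above background in both. Trim63, a ubiquitin ligase of muscle, was at least 8.26-fold higher under RA and was not above background in either untreated line. That bound holds for the main background treatment only, since after normexp correction the Trim63 difference under RA was 0.97 (limma adjusted p = 0.268). Tff1, a trefoil peptide, showed the reverse, at -3.37 ± 0.42 under RA with 1 of the 2 clone arrays above background and higher without it (adjusted p = 0.00144), where neither parental array was above background. Sorcs2, a receptor of proneurotrophins, was at -3.65 ± 0.32 under RA and 2.15 untreated, and Nrip2, a nuclear receptor interacting protein, at -1.46 ± 0.27 and 3.47. The Nrip2 call under RA was lost after normexp correction (-1.01, limma adjusted p = 0.113) and with probes averaged (-1.16, 0.0609). It was also lost with only the 4 RA arrays fitted (limma adjusted p = 0.0647). Of genes described above, Plxna4, Htr3a, Pcp4, Scn11a, Ctnna2 and Sin3b had a larger clone minus parental value under RA, and Cdkn1a, Ddit3 and Atf3 a smaller one. Plxna4 was at -0.32 without RA against 4.20 with it, and Cdkn1a at 0.88 against -3.27. Lmna was higher in the untreated clone by 1.27 and not under RA, and its change of -1.15 did not pass the test (adjusted p = 0.233).

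**Figure D5:**
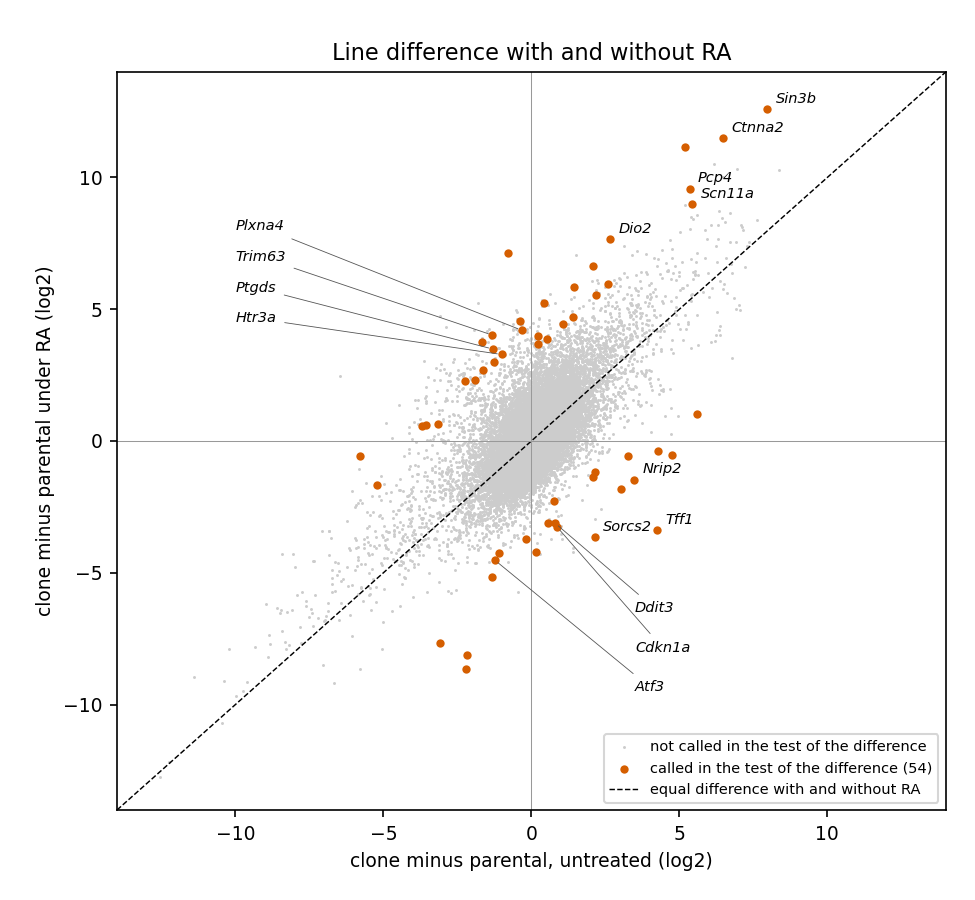
Each point is 1 gene, with the clone minus parental difference (log2) without RA on the horizontal axis and with RA on the vertical axis. The dashed line marks equal differences, and the 54 orange points are genes called in the test of the change, 15 of them named; Pcp4, Ctnna2 and Dio2 lie upper right above the line, while Ptgds, Trim63 and Htr3a lie upper left and Tff1, Sorcs2 and Nrip2 lower right.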

How the data were processed

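Cy3-labelled RNA was hybridised to 8 Agilent mouse arrays (design 028005), 2 per group. Per the file headers, Feature Extraction 10.7.3.1 subtracted background from the deposited intensity and detrended it, and it is not scaled across arrays. The series table, which served as an alternative, holds deposited log2 values, checked to equal log2 of that intensity minus 1 constant for each array.

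Control spots (3671 of 62976) and spots marked as feature outliers were left out, log2 intensity was set relative to each array's 75th percentile, and spots of a probe were averaged. Probes were kept if at least 2 of the 8 arrays read them well above background. The brightest probe stood for a gene, named through RefSeq accessions, which gave 15183 genes with a symbol and 11079 without. Where a gene was below background throughout a group, only a bound is given, which holds for the main processing only. Limma 3.58.1 in R 4.3.3 fitted 1 mean per group to all arrays (4 residual and 3.00 prior degrees of freedom), with Benjamini-Hochberg adjustment, after a test on simulated data. The number of arrays limits the precision. A setting that leaves 1 array in a group takes its spread from the other groups.

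Members, gene lists and the naming rule were chosen with earlier results of these data known. Named genes are Chat and Lmna, the 8 largest differences each way above background on all 4 RA arrays with the same sign on clone RA replicate 2 alone, the 4 largest bounds each way, the 3 smallest adjusted p in each list with 3 called members, and the 6 smallest in the test of the change with RA. Further list members were picked after their values were seen. Alternatives were background correction, normalization, source, filter, floor, probe choice, variance model, arrays fitted, slide side, a 2-fold threshold and each array left out. Coordinates are used only from RefSeq GRCm38.p6. Some list members are not reported here by name.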

Additional observations from a re-analysis of the deposited data

Results flagged for a closer look

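For 15 named genes the line difference under RA and the line difference without RA were unequal by limma's test of the difference itself (adjusted p from 0.0160 to 0.0496, n = 2 arrays per group). The change is the difference under RA minus the untreated one, on the log2 scale. It was positive for the neuronal genes Pcp4 (4.22 ± 0.39), Scn11a (3.55 ± 0.42), Ctnna2 (5.00 ± 0.59), Plxna4 (4.52 ± 0.41) and Htr3a (4.29 ± 0.48). It was also positive for Sin3b (4.62 ± 0.59), Dio2 (5.00 ± 0.38), Ptgds (4.80 ± 0.35) and Trim63 (5.34 ± 0.43). It was negative for the stress and cell cycle genes Atf3 (-3.29 ± 0.39), Cdkn1a (-4.15 ± 0.49) and Ddit3 (-3.92 ± 0.44), and for Nrip2 (-4.93 ± 0.38), Sorcs2 (-5.80 ± 0.45) and Tff1 (-7.60 ± 0.60).

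The measured difference had opposite signs with and without RA for Ptgds, Htr3a, Plxna4, Cdkn1a, Ddit3, Nrip2, Sorcs2 and Tff1. For Pcp4, Scn11a, Ctnna2, Sin3b, Dio2 and Atf3 it kept its sign. The test of the change is not a test of a turn in sign. The untreated difference was -0.32 for Plxna4, 0.80 for Ddit3, 0.88 for Cdkn1a and -1.01 for Htr3a, whose own tests are not given here. Trim63 was not above background in either untreated line, Tff1 not in the untreated parental line, and Ctnna2 and Sin3b not in the parental line under RA, so their values rest partly on signal near background. Each of the 15 calls was lost in at least 8 of its alternatives, those that leave out a parental or an untreated array among them. Without clone RA replicate 1 the adjusted p was 0.0190 for Tff1, 0.0208 for Ptgds and 0.0266 for Plxna4, while Scn11a, Ctnna2, Sin3b, Atf3, Cdkn1a and Ddit3 were no longer called (adjusted p from 0.0508 to 0.0574). Slide row is opposite in the treated and untreated comparisons and cannot be told apart from the change. Nor can the 1% serum medium and the DMSO of the RA groups, since the medium of the untreated cells is not given.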

How the results depend on the processing

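Of 2075 values for named genes under RA, 2022 kept their side of the threshold, 51 lost the call, 2 gained it and 0 reversed. The losses fell on 16 genes, most often Hoxc12 and Chrna5, and both gains on Chat. Apart from Chat and Lmna, the named genes were chosen by size of difference or adjusted p in these data. That most of their calls were kept therefore follows largely from the choice. Of all 6081 calls, 3608 were kept with normexp and 2596 with only the 4 RA arrays fitted. The number of genes called under RA (6081) was 3646 with normexp, 3703 without the filter on dim probes and 2628 with only the 4 RA arrays fitted, where 2 residual degrees of freedom remain, and lay between 5697 and 7169 in the other settings that kept all arrays. Leaving out 1 array gave 3817 to 7285. The number called in the test of the change with RA (54) was 0 with normexp (2447 genes at an unadjusted p under 0.05) and 0 with no filter (3178). It was 21 with slide side as a block, 189 with a floor for dim signals, 311 when a probe had to be above background on every array and 452 with a robust trended variance, and 0 to 1016 with 1 array left out (2433 to 5213 at an unadjusted p under 0.05). Of 209 named or listed genes with several probes, 40 had probes of opposite sign, and of those given values in the report these were Rarb, Chpt1, Cdk1, Mad2l1, Mapt, Meg3 and Rest. Signal over background limits the dim end. The cause of these shifts was not tested.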
